A study of Homo sapiens with 48 samples.

Results

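The nuclear-encoded respiratory chain genes specify the subunits of complexes I to V that are made from nuclear mRNA. Members were the protein-coding genes of GENCODE release 29 whose symbol carries a subunit stem: NDUFA, NDUFB, NDUFC, NDUFS or NDUFV for complex I, SDHA to SDHD for complex II, UQCR or CYC1 for complex III, the COX stems of structural subunits for complex IV, and ATP5 for complex V. This rule took 88 of the 58721 genes in the deposited tables, of which 36 belong to complex I, 4 to complex II, 10 to complex III, 18 to complex IV and 20 to complex V. NDUFA4 was counted with complex IV, in which it is a subunit, and the inhibitor ATP5IF1 and the coupling factor gene ATP5S were counted with complex V. The rule read symbols and no measured value.

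The respiratory chain passes electrons from NADH (complex I) or succinate (complex II) through ubiquinone to complex III, then through cytochrome c to complex IV, where oxygen is reduced. Complexes I, III and IV pump protons across the inner mitochondrial membrane, and complex V, the ATP synthase, uses the returning protons to make ATP. Apart from complex II, each complex joins subunits encoded in mitochondrial DNA with a larger number of nuclear-encoded ones, so that both sets of mRNA have to be supplied. Core subunits carry the redox centres, the quinone sites or the catalytic and rotary parts and have bacterial counterparts, whereas accessory subunits, many of them short membrane proteins, surround that core.

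The libraries came from DLD-1, an established human colorectal cancer cell line, in 3 forms that all express TIR1, a plant F-box protein. TIR1 directs proteins that carry an auxin-inducible degron (AID) to degradation when auxin is added. Parental cells carried no AID tag, CNOT1-AID cells carried it on CNOT1, the scaffold of the CCR4-NOT deadenylase complex, and CNOT4-AID cells on CNOT4, a RING-type ubiquitin ligase associated with that complex. The steady-state set had 24 libraries, 2 for each line at 8 h and at 24 h without auxin and with 1 mM of it (12 groups), and the decay set had 24 libraries in 12 groups of 2 (each line, 1 mM auxin for 2 h and then 1 µM triptolide, which blocks transcription, for 0, 3, 6 or 12 h). All decay libraries, the parental ones included, received auxin. The labels do not say whether a line is 1 clone or whether libraries of a group are separate cultures, so p-values reflect only how far these libraries differ, possibly for technical reasons.

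The steady-state table gives TPM, transcript abundance per length scaled to a fixed total, which keeps no depth, and the decay table gives counts of 18216427 to 26723618 per library. CNOT1 mRNA was at 45.0 (44.95) and 48.3 TPM in CNOT1-AID cells after 8 h of auxin and at 49.0 (48.97) and 60.9 TPM in their untreated partners, and CNOT4 mRNA was at 8.66 and 10.8 TPM in CNOT4-AID cells after 8 h of auxin and at 9.76 and 9.02 TPM without it. At 24 h CNOT1 mRNA was at 45.9 and 39.9 TPM with auxin and 68.4 and 59.0 (59.01) TPM without it in CNOT1-AID cells. In the same cells CNOT4 mRNA was at 32.8 and 32.5 TPM with 8 h of auxin and 44.4 and 38.8 TPM with 24 h, against 6.90 to 9.51 TPM untreated. Auxin removes the tagged proteins, whose levels were not analysed here, so these mRNA values are no check of the depletion. All 7 colon epithelial markers averaged at least 1 TPM in the 20 libraries other than CNOT1-AID with auxin, and 6 did in those 4 libraries, with summed levels of 2830 to 4680 TPM and 1930 to 2620 TPM. The summed levels of 4 fibroblast markers were 0.02 to 0.43 TPM in the 20 libraries and 0.47 to 4.09 TPM in the 4 libraries, and those of 3 blood markers were 0.42 to 0.96 and 2.26 to 3.81 TPM, while 3 endothelial markers summed to at most 0.55 TPM anywhere. Their part in the results was not tested. In RNA from whole cultures, fewer cells with an mRNA and less of it per cell cannot be told apart.

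The members took a smaller share of the protein-coding transcripts when CNOT1-AID cells were given auxin. Together they made up 1.473 and 1.474% of protein-coding TPM in the CNOT1-AID libraries with 8 h of auxin and 1.467 and 1.479% in those with 24 h. In the other 20 libraries the share lay between 1.825 and 1.961%, so the 4 libraries lie below all others without overlap. This share needs no scaling between libraries but depends on its denominator, protein-coding TPM, which was itself larger in the 4 libraries. Of total TPM, the members took 0.7607 and 0.7677% in CNOT1-AID cells with 8 h of auxin and 0.803 and 0.7741% with 24 h. Their untreated partners held 0.8343 and 0.8643%, and 0.8627 and 0.8386%. The CNOT4-AID libraries at 8 h lay lower still, at 0.7303 and 0.7245% untreated and 0.5783 and 0.7392% with auxin. Untreated CNOT1-AID cells held 1.958 and 1.866% at 8 h and 1.827 and 1.867% at 24 h. The core subunits alone stood at 0.631 and 0.587% (0.6307 and 0.5865) without auxin and 0.528 and 0.530% (0.5275 and 0.5304) with it at 8 h, and at 0.578 and 0.591% against 0.547 and 0.553% at 24 h.

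**Figure D1:**
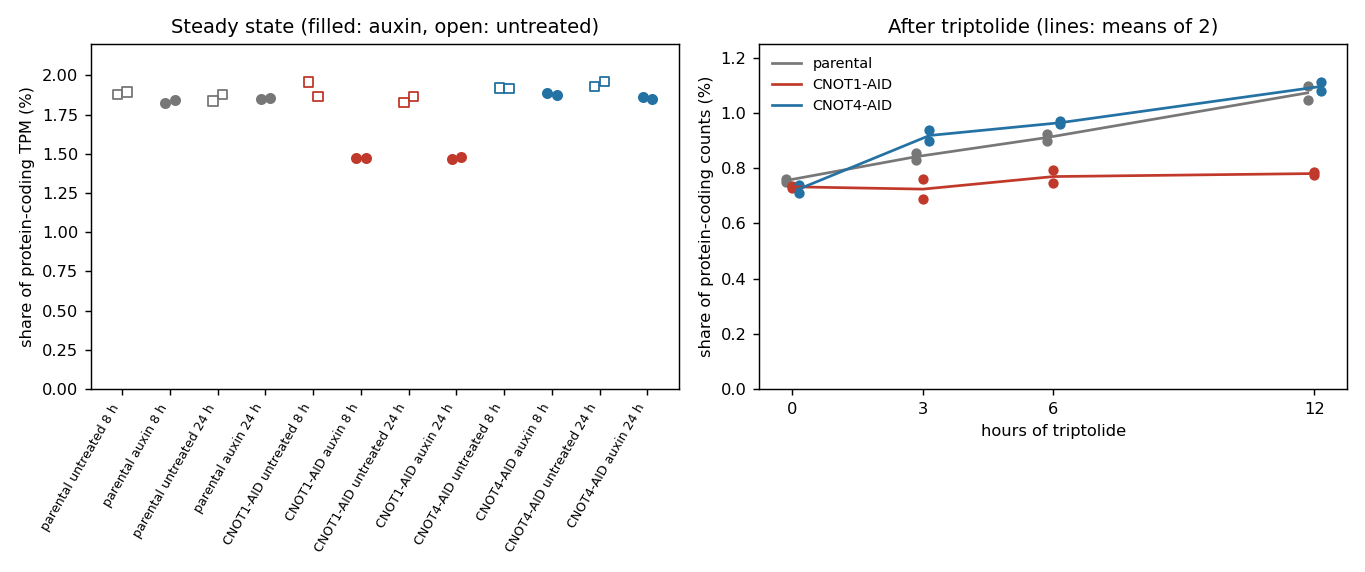
Left: summed TPM of the 88 members as a percent of all protein-coding TPM in each steady-state library (open squares untreated, filled circles with auxin); the 4 CNOT1-AID libraries with auxin sit at 1.467 to 1.479%, below the 20 others at 1.825 to 1.961%. Right: summed counts of the members as a percent of protein-coding counts against hours of triptolide, with points for libraries and lines for the means of 2; at 12 h the parental and CNOT4-AID libraries lie at 1.048 to 1.112% and the CNOT1-AID libraries at 0.7763 and 0.7848%.

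Of the 88 members, 80 passed the filter of at least 1 TPM in at least 2 libraries, with mean levels from 6.13 TPM (ATP5S, coupling factor) to 516 TPM (ATP5F1B, the catalytic beta subunit). The tissue-restricted isoforms COX4I2, COX6A2, COX7A1 and COX7B2 were listed at 0 TPM in all 24 libraries, and COX6B2, COX8C, ATP5MGL and UQCRHL did not pass either, the highest value among the 8 being 2.02 TPM. The expressed partners COX4I1, COX6A1, COX6B1, COX7A2, COX7B and COX8A were therefore the forms of these complex IV subunits that could be followed. Of the 88 members, 45 have at least 1 pseudogene named after them in the annotation, so reads can be shared with near-identical copies, and values of such members are uncertain to that extent.

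Most members fell relative to the other mRNAs after auxin in CNOT1-AID cells. Changes were estimated with limma on log2 of TMM-scaled TPM plus 0.5, in which TMM sets the bulk of genes to no change, and a call is an adjusted p under 0.05 over all 14921 genes tested. At 8 h, 62 of 80 members fell and 1 rose, beside 27.1% of all genes tested that fell and 35.7% that rose, and the members' median log2 change was -0.393 against 0.045 for all genes. At 24 h, 55 fell and 14 rose, beside 33.8% and 37.6% of all genes, with a median of -0.383 against 0.0029. Of the 62 members called lower at 8 h, 50 were also called lower at 24 h, 4 were called higher and 8 in neither direction. In 64 of 80 members at 8 h and 59 at 24 h, both auxin libraries lay below both untreated ones on this scale, beside 35.1% and 40.6% of all genes, and in 5 and 17 members both lay above, beside 42.4% and 43.6%.

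The direction of the members as a group depended on what was taken as constant. ERCC spike-in RNA had been added to a fixed mass of RNA, per the labels, and scaling to it moved the median of all genes to 0.41 at 8 h and 0.31 at 24 h. With ERCC scaling, 22 members rose and 11 fell at 8 h, beside 52.1% and 9.85% of all genes, and the members' median was 0.0159. At 24 h, 24 rose and 23 fell, beside 47% and 19.4% of all genes, with a median of -0.0364. On both scales and at both times the members' median lay below the median of all genes. Under all 4 scalings tried (TMM, TMM within protein-coding genes, ERCC, and TPM as deposited), 11 members fell and 0 rose at 8 h (13.8% and 0%, beside 9.73% and 30.9% of all genes tested), and 23 fell and 6 rose at 24 h (28.7% and 7.5%, beside 19.4% and 33.1%). By this rule the members' share of lower calls was nearer to that of all genes than on the TMM scale alone. TPM as deposited rises for many mRNAs here, because protein-coding genes took 51.7 to 54.7% of TPM in the CNOT1-AID libraries with auxin and 42.6 to 47.2% in their untreated partners; the median of all genes on that scale was 0.26 at 8 h and 0.21 at 24 h.

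**Figure D2:**
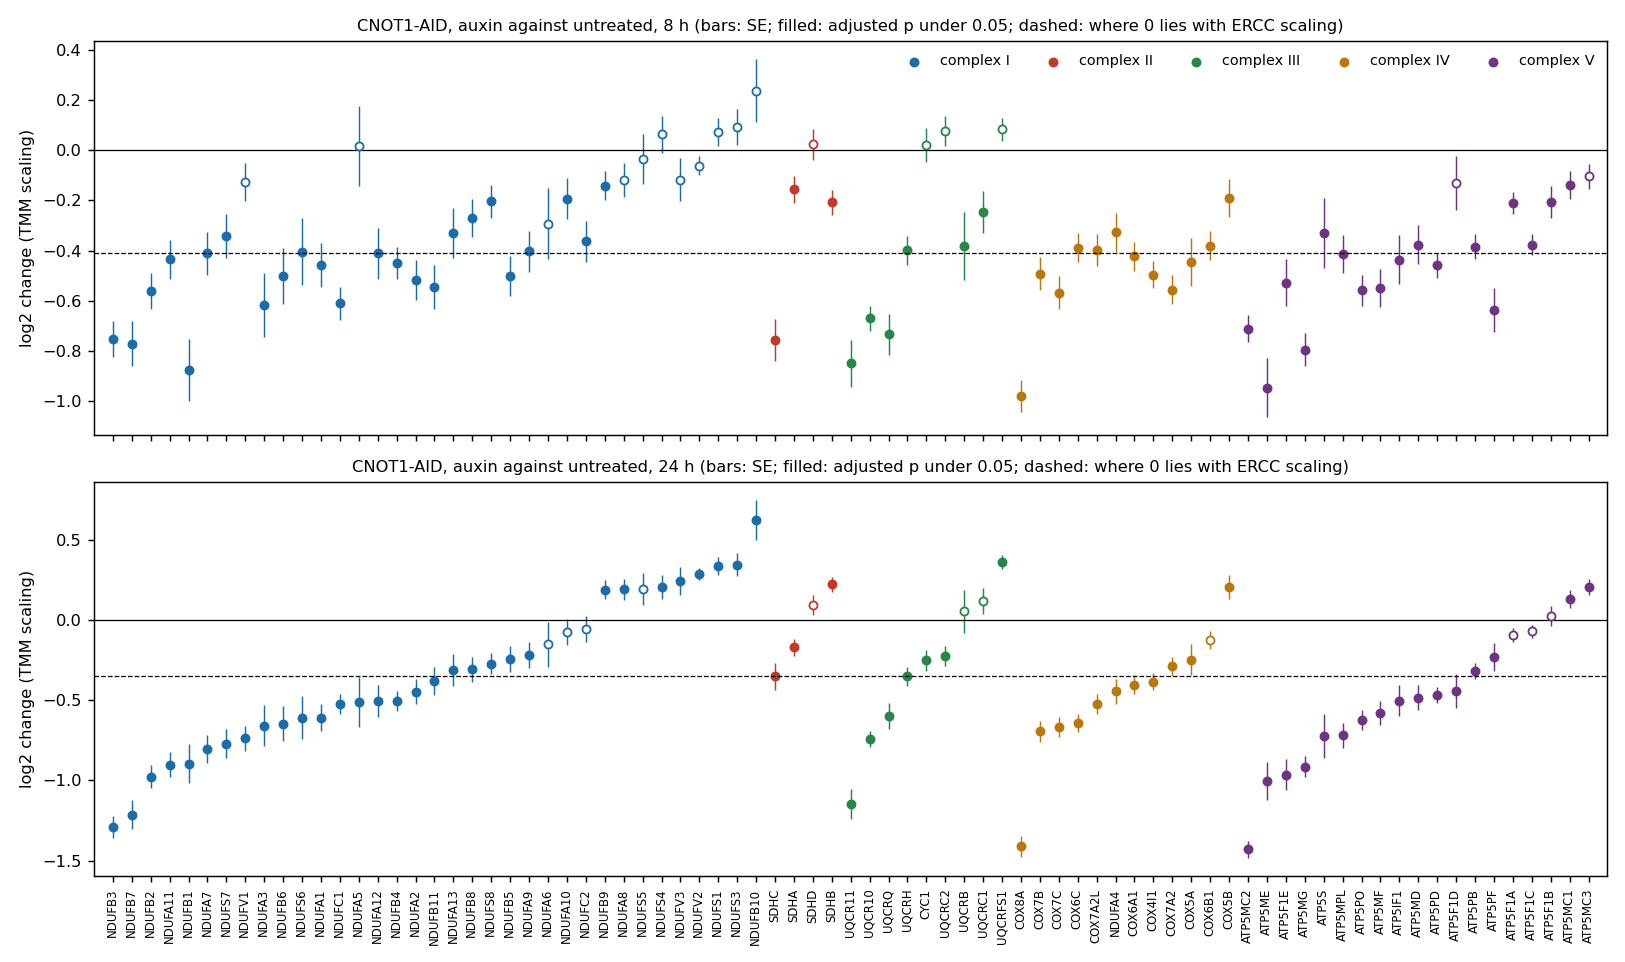
Log2 change of 79 of the 80 tested members in CNOT1-AID cells with auxin against untreated cells at 8 h (top) and 24 h (bottom), grouped by complex and ordered by the 24 h value, with TMM scaling, standard errors as bars and filled points for adjusted p under 0.05. The dashed line marks the TMM value that corresponds to no change with ERCC scaling; at 24 h the values run from -1.43 (ATP5MC2) to 0.62 (NDUFB10), with members on both sides of the line.

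Complex I held both strong falls and the largest rises. Of its 36 tested subunits, 24 fell and 1 rose at 8 h, and 23 fell and 9 rose at 24 h (ERCC: 12 rose and 3 fell, then 12 rose and 10 fell). Of all genes tested, 27.1% fell and 35.7% rose at 8 h, and 33.8% fell and 37.6% rose at 24 h. With ERCC scaling, 52.1% rose and 9.85% fell at 8 h, and 47% rose and 19.4% fell at 24 h. On both scales and at both times complex I had a smaller share of rises than all genes. The same shares of all genes apply to the counts of complexes III, IV and V below. NDUFB3, a short accessory subunit of the membrane arm, stood at 59.9 and 59.8 TPM without auxin and at 30.2 and 26.6 TPM with it at 24 h. Both auxin values were the lower ones, and the log2 change was -1.29 (SE 0.0705, limma adjusted p = 5.23e-11), or -0.95 with ERCC scaling (adjusted p = 1.92e-06). At 8 h NDUFB3 was at 49.5 and 60.8 TPM without and 36.7 and 39.9 TPM with auxin, a log2 change of -0.75, while the 8 parental libraries ranged from 56.9 to 66.3 TPM. NDUFB1, another membrane-arm accessory subunit, had the lowest value of the complex at 8 h, with 45.3 and 61.2 TPM untreated and 35.4 and 32.1 TPM with auxin (log2 change -0.88, SE 0.122, limma adjusted p = 9.12e-06).

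Several core subunits of the hydrophilic arm of complex I moved the other way at 24 h. NDUFB10, an accessory subunit, had the highest value of the complex at 24 h, from 33.5 and 32.8 TPM to 58.3 and 61.9 TPM (log2 change 0.62, SE 0.125, limma adjusted p = 0.00028). At 8 h its log2 change of 0.24 did not pass (limma adjusted p = 0.109), with 32.8 and 34.2 TPM untreated and 46.2 and 47.2 TPM with auxin. The core subunits NDUFS1, NDUFS3 and NDUFV2, which bind iron-sulfur clusters or sit beside them, rose at 24 h under all 4 scalings, by 0.34, 0.35 and 0.29 on the TMM scale. NDUFV1, the NADH-oxidising flavoprotein, and NDUFS7, the iron-sulfur subunit next to the quinone site, are core subunits too, and their log2 changes at 24 h were -0.74 and -0.77, called lower under all 4 scalings.

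In complex II, which has only 4 subunits and no mitochondrially encoded one, the genes gave separate patterns. SDHC, a membrane anchor, was at 78.2 and 74.6 TPM untreated and 52.2 and 54.3 TPM with auxin at 8 h, with no overlap (log2 change -0.76, SE 0.0839, limma adjusted p = 6.71e-07; -0.35 with ERCC scaling, adjusted p = 0.0104). By 24 h SDHC stood at 74.5 and 70.8 against 69.9 and 63.7 TPM, a log2 change of -0.35 (limma adjusted p = 0.00131) with TMM and of -0.00402 with ERCC scaling. The other anchor, SDHD, was at 50.7 and 61.7 TPM untreated against 67.3 and 67.2 TPM with auxin at 8 h and at 61.5 and 59.6 against 79.5 and 72.2 TPM at 24 h. SDHD passed at neither time with TMM (adjusted p = 0.775 and 0.202) and at both with ERCC scaling (log2 change 0.43 and 0.44). SDHB, the iron-sulfur subunit, was at 77.2 and 80.1 TPM untreated against 78.8 and 82.1 TPM at 8 h, which overlap, and at 82.6 and 84.8 against 117 and 112 TPM at 24 h, which do not. Its log2 change was -0.21 at 8 h (limma adjusted p = 0.00156) and 0.22 at 24 h (adjusted p = 0.000707), and ERCC scaling gave 0.20 (adjusted p = 0.0562) and 0.57. SDHA, the flavoprotein, had log2 changes of -0.16 and -0.17 on the TMM scale and of 0.25 and 0.18 with ERCC scaling.

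In complex III UQCR11, UQCR10 and UQCRQ fell and UQCRFS1 rose at 24 h under all 4 scalings. Of 9 tested members 6 fell and 0 rose at 8 h, and 6 fell and 1 rose at 24 h (ERCC: 3 rose and 3 fell at both times). UQCR11, which has the shortest coding sequence of the complex, was at 57.4 and 56.1 TPM untreated and 36.4 and 37.6 TPM with auxin at 8 h. At 24 h it was at 51.5 and 51.2 against 30.9 and 23.4 TPM (log2 change -1.15, SE 0.0934, limma adjusted p = 8.67e-09; -0.80 with ERCC scaling). The small subunits UQCR10 and UQCRQ fell under all 4 scalings at both times. UQCRFS1, the Rieske iron-sulfur protein, rose from 30.4 and 30.1 TPM to 46.6 and 45.1 TPM at 24 h (log2 change 0.36, SE 0.0457, limma adjusted p = 2.03e-06; 0.71 with ERCC scaling), above its parental range of 29.3 to 31.9 TPM. At 8 h UQCRFS1 stood at 29.4 and 30.9 against 37.9 and 37.8 TPM, and the TMM change of 0.08 did not pass (limma adjusted p = 0.119). UQCRH, the hinge protein of cytochrome c1, changed by -0.40 and -0.35 with TMM, both called lower, and by 0.01 and -0.00181 with ERCC scaling, neither called. UQCRB, another small subunit, stood at 29.7 and 28.1 TPM untreated and 34.6 and 35.8 TPM with auxin at 24 h, a change of 0.05 that did not pass with TMM (limma adjusted p = 0.736) and of 0.40 that did with ERCC scaling (adjusted p = 0.0386).

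All 12 tested nuclear subunits of complex IV fell at 8 h on the TMM scale, and 10 fell and 1 rose at 24 h, whereas with ERCC scaling 0 rose and 1 fell at 8 h, and 2 rose and 4 fell at 24 h. COX8A, a subunit with a single membrane helix, changed most. It stood at 270.3 and 271 TPM untreated and at 163 and 161 TPM with auxin at 8 h, and at 277 and 279.6 against 119.6 and 125 TPM at 24 h. All 4 auxin libraries lay below the untreated ones and below the parental range of 254 to 273 TPM. The log2 change of COX8A was -0.98 at 8 h (SE 0.0636, limma adjusted p = 9.39e-10) and -1.41 at 24 h (SE 0.0636, adjusted p = 4.75e-12), or -0.57 and -1.06 with ERCC scaling. COX5B, a zinc-binding subunit, was the 1 that rose at 24 h, from 87.1 and 84.8 TPM to 122 and 112 TPM (log2 change 0.21, SE 0.0749, limma adjusted p = 0.0198), after a change of -0.19 at 8 h (adjusted p = 0.0371) that ERCC scaling gave as 0.22. COX6B1, which faces the intermembrane space, was the 1 not called at 24 h on the TMM scale, with 292 and 293 against 332 and 299 TPM, and was called higher with ERCC scaling (0.22, limma adjusted p = 0.021). COX4I1, COX6A1, COX7A2 and the supercomplex-linked COX7A2L changed by -0.38, -0.40, -0.29 and -0.52 at 24 h on the TMM scale and passed with ERCC scaling at neither time. COX7B changed by -0.69 at 24 h and passed on both scales (limma adjusted p = 6.61e-08 and 0.00948).

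In complex V, 17 of 19 tested members fell at 8 h, and 14 fell and 2 rose at 24 h (ERCC: 5 rose and 3 fell, then 5 rose and 6 fell). The subunits ATP5F1A and ATP5F1B of the catalytic head fell at 8 h with -0.21 and -0.21, and at 24 h had log2 changes of -0.09 and 0.02 that did not pass. ATP5ME, a short membrane subunit, was lowest at 8 h, with 87.9 and 102 TPM untreated and 59.97 and 55.93 TPM with auxin (log2 change -0.95, SE 0.117, limma adjusted p = 2.27e-06). It remained low at 24 h, with 76.1 and 72.6 against 41.6 and 44.8 TPM (log2 change -1.004). ATP5F1E, the epsilon subunit of the central stalk and the member with the shortest coding sequence, stood at 20.9 and 20.3 TPM untreated and 12.3 and 11.9 TPM with auxin at 24 h (log2 change -0.96, limma adjusted p = 1e-07). ATP5IF1, which inhibits ATP hydrolysis by the enzyme, changed by -0.44 and -0.50, both called with TMM, and by -0.03 and -0.16 with ERCC scaling, neither called (adjusted p = 0.873 and 0.308).

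The 3 genes for subunit c of the synthase went in different directions. ATP5MC1, ATP5MC2 and ATP5MC3 encode precursors that differ in their mitochondrial import sequences and yield the same mature protein, which forms the rotor ring. ATP5MC2 (chr12:53632726-53677408, minus strand, GRCh38) was at 134 and 132 TPM untreated and 96.7 and 94.9 TPM with auxin at 8 h, and at 136 and 128 TPM against 57.0 and 57.3 TPM at 24 h. Its log2 change at 24 h was -1.43 (SE 0.0538, limma adjusted p = 5.41e-13) with TMM and -1.08 (adjusted p = 2.03e-09) with ERCC scaling, the lowest value of the 80 tested members on both scales. ATP5MC3 (chr2:175176258-175184607, minus strand) was at 225 and 219 TPM untreated and 303 and 298 TPM with auxin at 24 h, above all other libraries (log2 change 0.20, SE 0.0496, limma adjusted p = 0.00149; 0.55 with ERCC scaling). ATP5MC1 (chr17:48892765-48895871, plus strand) went from 105 and 103 TPM to 139.6 and 128 TPM (log2 change 0.13, SE 0.0556, limma adjusted p = 0.046), with 0.48 by ERCC scaling and -0.00625, not called, by TMM within protein-coding genes. At 8 h ATP5MC1 and ATP5MC3 had log2 changes of -0.14 (limma adjusted p = 0.0415) and -0.10 (adjusted p = 0.0801), and 0.27 and 0.31 with ERCC scaling. Measured against the parental response by the interaction term, the 24 h differences were -1.41 for ATP5MC2 (limma adjusted p = 1.37e-10), 0.22 for ATP5MC3 (adjusted p = 0.0126) and 0.12 for ATP5MC1 (adjusted p = 0.187).

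**Figure D3:**
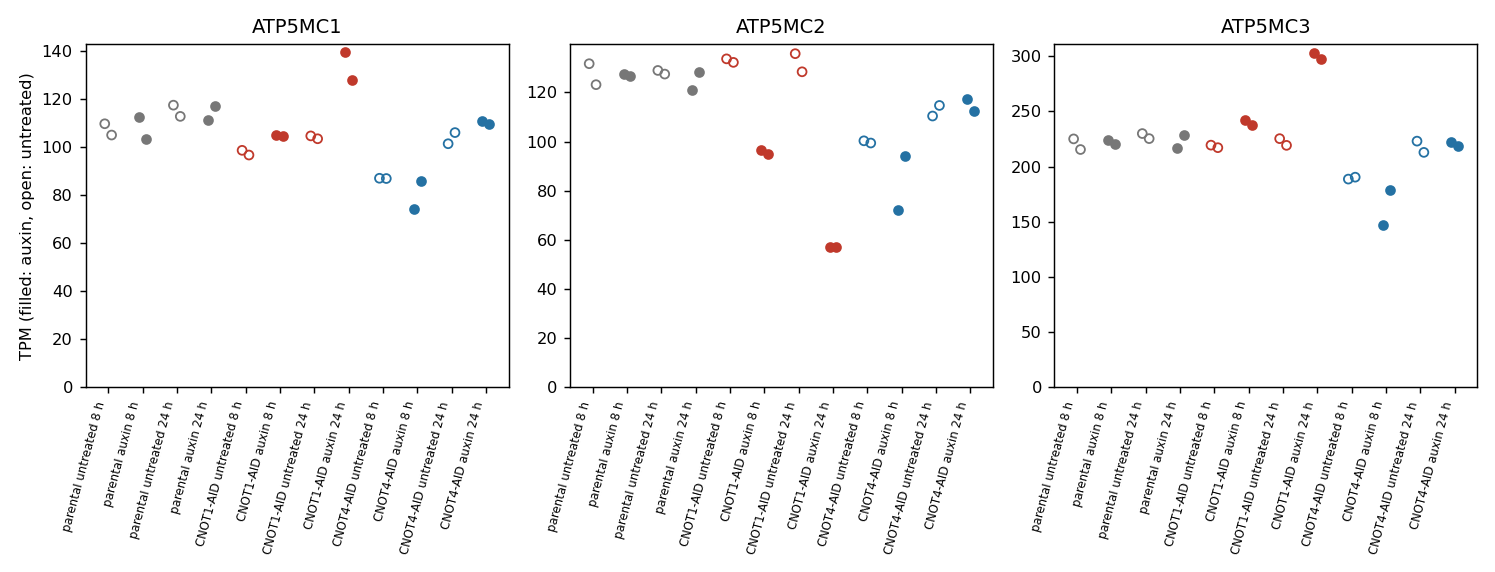
TPM of the 3 genes for subunit c of ATP synthase in each of the 24 steady-state libraries (open untreated, filled with auxin; grey parental, red CNOT1-AID, blue CNOT4-AID). With auxin in CNOT1-AID cells, ATP5MC2 drops to 57.0 and 57.3 TPM at 24 h while ATP5MC3 reaches 303 and 298 TPM.

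The tested members were split, after their values had been seen, into 22 core subunits with bacterial counterparts and 58 others. At 24 h, 8 core subunits rose and 10 fell, and 6 of the others rose and 45 fell, with median log2 changes of -0.0821 and -0.492. Of all genes tested, 37.6% rose and 33.8% fell, so the share of core subunits that rose was close to that of all genes. At 8 h, 12 core subunits fell and 1 rose, and 50 of the others fell and 0 rose, with medians of -0.146 and -0.428. At that time 27.1% of all genes fell and 35.7% rose. With ERCC scaling the medians at 24 h were 0.266 and -0.146, both below the median of all genes on that scale. The 6 members that rose under all 4 scalings at 24 h included the core subunits NDUFS1, NDUFS3, NDUFV2 and UQCRFS1 and the accessory subunit NDUFB10. Of the 23 that fell under all 4, 19 were not core subunits. By that rule 33.1% of all genes rose and 19.4% fell at 24 h. The counts of core subunits and others come from the contrast in which the split was noticed and are a description.

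Coding length ran with the response among the members. Over the 80 members, Spearman's rho between annotated coding length and log2 change was 0.604 at 8 h and 0.564 at 24 h, against 0.212 and 0.125 over 11681 other protein-coding genes, and the median coding length was 409.5 nt in the members and 1380 nt in the others. These are correlations across genes that share libraries, so they carry no p-value. Among the 58 members outside the core rho was 0.52 and 0.56, and among the 22 core subunits 0.23 and 0.26. Lengths of the 3′ and 5′ untranslated regions had rho values between 0.017 and 0.063 with the members' changes. For the number of exons, rho was 0.444 at 8 h and 0.375 at 24 h in the members. In the other protein-coding genes it was -0.04 and -0.084. Whether coding length and exon number run with the response independently of each other was not tested. For whole mRNA length, rho was 0.246 and 0.213 in the members, against 0.16 and 0.074 in the other genes. With whole mRNA length the pattern was less even. At 8 h, 86.4% of 22 members with mRNAs under 750 nt fell, 77.4% of 31 from 750 nt, 71.4% of 14 from 1500 nt and 69.2% of 13 from 3000 nt. At 24 h the shares in the same order were 68.2%, 77.4%, 71.4% and 46.2%, so the shortest mRNAs did not have the highest share. Among other protein-coding genes (276, 1290, 4039 and 6076 in these ranges), 48.9%, 40.8%, 27% and 22.3% fell at 8 h and 52.5%, 42.6%, 31.9% and 31.9% at 24 h.

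**Figure D4:**
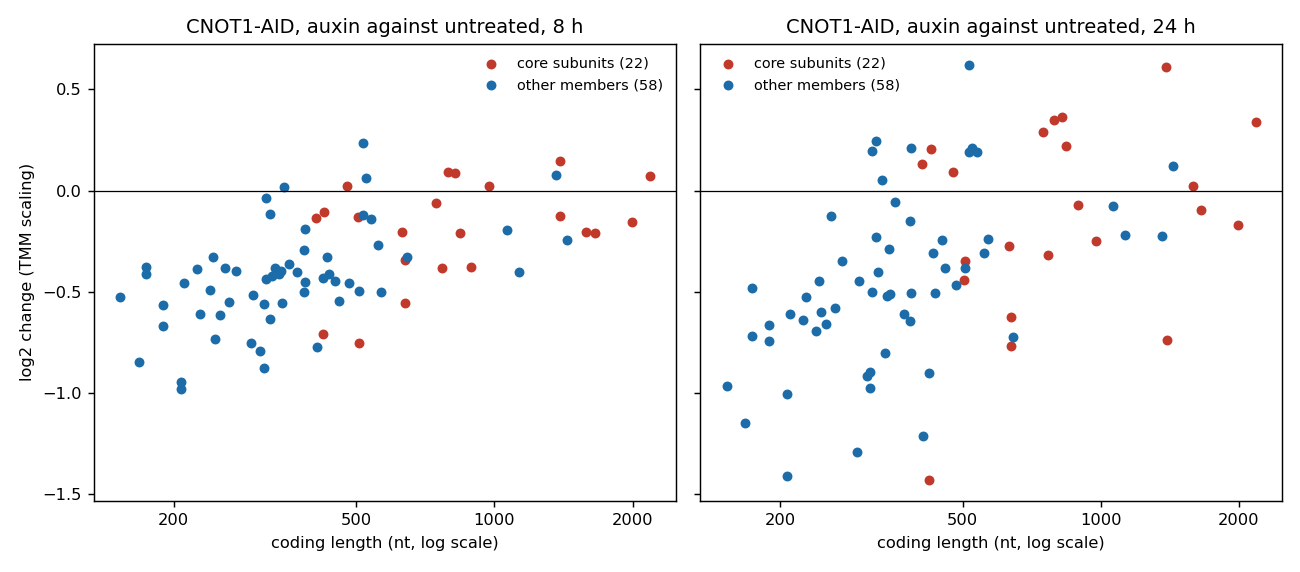
Log2 change in CNOT1-AID cells with auxin (TMM scaling) against coding length on a log axis for the 80 tested members, at 8 h (left) and 24 h (right), with the 22 core subunits and the 58 other members in separate colours. The lowest points lie at short coding lengths, and rho over all 80 is 0.604 and 0.564.

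Promoters were searched because genes of the chain share regulators that the naming rule did not use. NRF1, the ETS factor GABPA and YY1 are known activators of these genes. Among the 69 members matched to the RefSeq promoter table (GRCh38.p14; 250 bases before to 50 after the start), 24.6% held the NRF1 letters GCGCA, any base and GCGC, 29% the GABPA letters CCGGAAG and 23.2% the YY1 letters AANATGGCG, on either strand. A promoter was counted once per motif, and overlaps between motifs were allowed. Among all 27305 promoters of the table the shares were 6.3%, 10.7% and 3.4%. The 150 bases before the start are shown for a pair of members that fell under all 4 scalings at 24 h, UQCR11 (chr19:1605463-1605612, minus strand) and COX8A (chr11:63974470-63974619, plus strand), and a pair that rose, UQCRFS1 (chr19:29213152-29213301, minus strand) and NDUFS3 (chr11:47578924-47579073, plus strand). Each is written 5′ to 3′ in the gene's direction, and capitals mark NRF1, GABPA or YY1 letters on either strand.
UQCR11: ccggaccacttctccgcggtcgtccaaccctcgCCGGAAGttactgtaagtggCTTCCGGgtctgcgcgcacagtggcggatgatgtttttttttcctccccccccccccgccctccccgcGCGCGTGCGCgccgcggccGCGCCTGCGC
COX8A: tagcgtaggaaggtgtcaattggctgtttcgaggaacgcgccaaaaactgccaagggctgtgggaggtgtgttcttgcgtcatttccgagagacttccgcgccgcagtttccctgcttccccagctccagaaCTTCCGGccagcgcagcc
UQCRFS1: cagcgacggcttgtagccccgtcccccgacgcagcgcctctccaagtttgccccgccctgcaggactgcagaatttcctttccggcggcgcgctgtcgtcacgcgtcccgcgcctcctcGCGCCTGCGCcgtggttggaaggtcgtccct
NDUFS3: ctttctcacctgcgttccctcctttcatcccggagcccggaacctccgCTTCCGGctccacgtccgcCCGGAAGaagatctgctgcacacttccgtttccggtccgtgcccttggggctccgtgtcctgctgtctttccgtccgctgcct
Capitals occur in members of both directions: UQCR11 carries NRF1 and GABPA letters, COX8A and NDUFS3 GABPA letters and UQCRFS1 NRF1 letters. All promoters shown hold a match, which is not so for all members. NDUFB3, UQCR10 and ATP5MC2, which fell under all 4 scalings at 24 h, and NDUFB10, which rose, held none in the 250 bases before the start. No YY1 letters stand in the stretches shown. Matches in the 50 bases after the start, which the shares above include, are not shown. A match is a string of letters and not a measured site.

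Letters bound by proteins known to recruit CCR4-NOT were less frequent in the members' 3′ untranslated regions than in those of other genes. The Pumilio letters (TGTA, any base, ATA) were found in 9 of 80 members (11.2%) against 26.9% of 11681 other protein-coding genes, and the AU-rich letters TATTTAT in 11 (13.8%) against 32.5%. The members' 3′ untranslated regions are also shorter, with a median of 225 nt against 1056 nt. Sites from the GENCODE 29 transcripts of 3 members are shown with the Pumilio letters in capitals, from NDUFS3 and ATP5MC3, which rose at 24 h, and from ATP5F1E, which fell.
NDUFS3: ttgagtgtccgTGTAAATAaattcctactt
ATP5MC3: ttgcacaacatTGTAAATAtaataaatgtc
ATP5F1E: tttttgaagttTGTAAATAgaagacttgtt
The same letters thus stand in mRNAs whose log2 changes at 24 h were 0.35, 0.20 and -0.96.

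Auxin in parental cells, which carry no tag, gave no call among the members. The counts were 0 of 80 with limma at 8 h and at 24 h, beside 0.0201% and 0% of all genes called in either direction, with 11 and 2 members at an unadjusted p under 0.05 and medians of -0.0883 and 0.00343. In CNOT4-AID cells 0 of 80 passed at 8 h (limma; 7 at an unadjusted p under 0.05), beside 0.261% of all genes, and 2 fell at 24 h, beside 4.27% of all genes called in either direction. These were ATP5F1B, with a log2 change of -0.31 (SE 0.0626, limma adjusted p = 0.0154), and COX8A, with -0.24 (SE 0.0636, adjusted p = 0.0436). Neither passed with ERCC scaling, and 0 passed without CNOT4-AID untreated replicate 1 or without either auxin replicate at 24 h. CNOT4-AID replicate 1 with 8 h of auxin stood apart, with 30.6% of its TPM in protein-coding genes against 39.5% in its partner, and without it 5 members rose.

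The response of CNOT1-AID cells was compared with that of parental cells by an interaction term. At 8 h, 39 of 80 members responded lower and 2 higher than in parental cells, beside 20.4% and 29.9% of all genes (ERCC: 2 lower and 20 higher, beside 5.82% and 45.9%). At 24 h, 50 were lower and 8 higher, beside 28.9% and 33.1% (ERCC: 13 lower and 18 higher, beside 13.8% and 42%). Under all 4 scalings only COX8A and UQCR11 were lower at 8 h and 0 members were higher. These are 2.5% and 0% of the members, below the 5.81% and 25.2% of all genes called lower and higher by that rule. At 24 h 13 members were lower and 5 higher (16.2% and 6.25%, beside 13.8% and 28.9%), so the members' lower share was close to that of all genes. The 5 included NDUFS1, NDUFS3, NDUFV2 and UQCRFS1. COX8A differed by -1.46 (SE 0.0899, limma adjusted p = 6.65e-10) at 24 h. These tests share the CNOT1-AID libraries with the comparison above. The response of CNOT4-AID cells differed from the parental one in 0 of 80 members at each time by limma, with 9 and 6 at an unadjusted p under 0.05, beside 0.0134% and 0.0603% of all genes called in either direction.

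Without auxin the lines already differed in some members. Untreated CNOT1-AID cells, over both times, had 2 members higher and 3 lower than parental cells, beside 20.8% of all genes called in either direction. NDUFA13, a complex I subunit, was 1 of them, with 116 and 114 TPM at 8 h and 115 and 110.1 TPM at 24 h in CNOT1-AID cells against 83.8 and 88.6 TPM and 75.8 and 82.4 TPM in parental cells (log2 difference 0.50, SE 0.0715, limma adjusted p = 0.000108). The count of 5 became 13 without CNOT1-AID untreated replicate 2 at 8 h, 9 without replicate 1 at 8 h and 8 without parental untreated replicate 2 at 24 h. Untreated CNOT4-AID cells had 24 members higher and 1 lower, beside 11.8% and 9.07% of all genes, with a median log2 difference of 0.101 against 0.0023. In complex III 6 of 9 members were higher, and NDUFA13 again had the highest difference at 0.50 (SE 0.0715, adjusted p = 0.000111), while NDUFS4, an accessory subunit, was lower (-0.16, adjusted p = 0.0377). With TPM as deposited the direction turned, with 1 member higher and 43 lower, and leaving out 1 library gave 10 (parental replicate 1 at 24 h) to 25 called members, with 12 without parental replicate 1 at 8 h and 14, 15 and 13 without CNOT4-AID replicate 1 or 2 at 8 h or replicate 2 at 24 h.

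The members' mRNAs declined less than most in the decay set. Decay was described by a slope in log2 units per hour over 0 to 12 h of triptolide, from edgeR's quasi-likelihood fit of the counts with library sizes set by ERCC counts, and 81 members were tested (UQCRHL in addition, whose reads may be shared with UQCRH). In parental cells the median slope was 0.0106 for the members against -0.073 for all genes, and 4 members declined, beside 48.1% of all genes. The sign of such small slopes depended on the parental 0 h libraries, the least alike pair of the set. Without 0 h, ATP5F1B went from 0.0076 (SE 0.022) to -0.016 (SE 0.034) and ATP5PB from 0.0071 to -0.0212. Other members stayed positive, such as NDUFB2 with 0.0144 and 0.0188. On the TMM scale, on which the typical mRNA is level, 72 of 81 rose in parental cells, beside 24.6% of all genes, with a median of 0.0778. The members' share of protein-coding counts was 0.7514 and 0.7592% at 0 h, 0.8301 and 0.8534% at 3 h, 0.9243 and 0.8977% at 6 h, and 1.048 and 1.097% at 12 h, higher at each time than before and with no overlap.

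In CNOT1-AID cells the share stayed closer to its start. It was 0.7371 and 0.7278% at 0 h, 0.7607 and 0.6875% at 3 h, 0.7469 and 0.7922% at 6 h, and 0.7848 and 0.7763% at 12 h, below all parental values from 3 h on. CNOT4-AID cells went from 0.7407 and 0.7086% through 0.9387 and 0.8981% and then 0.9702 and 0.9589% to 1.081 and 1.112%. With TMM scaling, slopes in CNOT1-AID cells had a median of 0.0224 and 13 of 81 members rose, beside 3.78% of all genes, while in CNOT4-AID cells the median was 0.083 and 73 rose, beside 27% of all genes. With ERCC scaling the median was -0.00906 in CNOT1-AID cells, with 0 members declining (edgeR; 0 at an unadjusted p under 0.05), beside 10.9% of all genes. In CNOT4-AID cells it was -0.0598, with 53 declining, beside 85.5% of all genes. The CNOT4-AID libraries at 12 h differed in ERCC share, with 2.25 and 3.92% of counts, and its part in the slopes was not tested beyond leaving each library out.

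**Figure D5:**
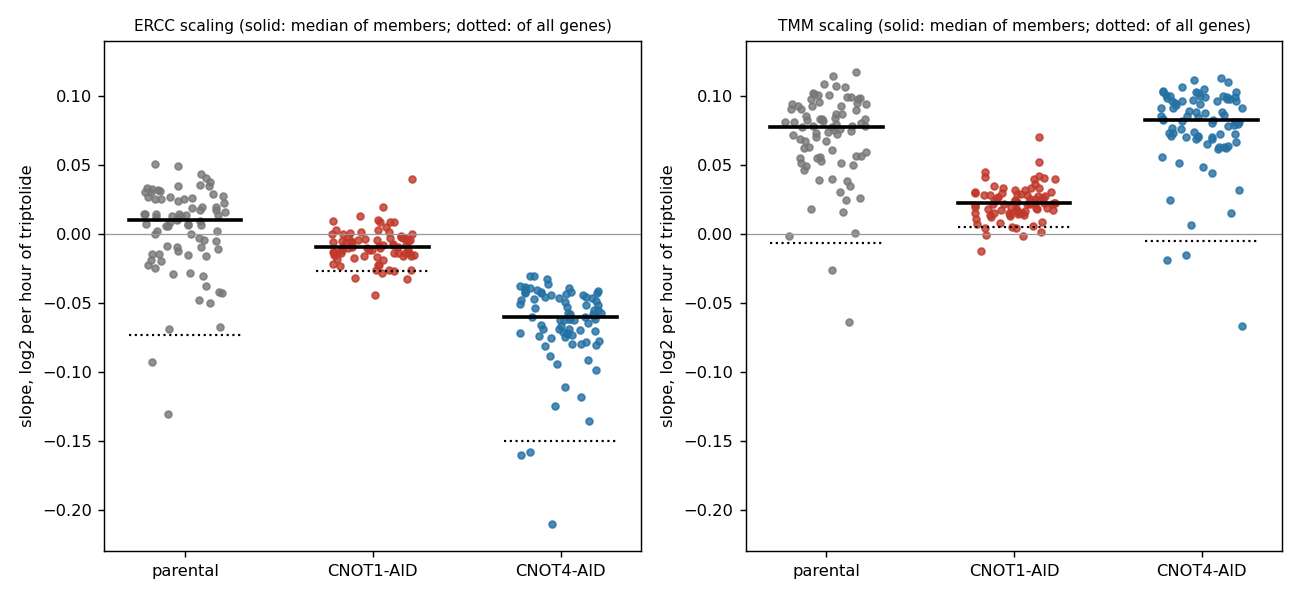
Slopes of the 81 tested members over 0 to 12 h of triptolide in the 3 lines, in log2 units per hour, with ERCC scaling (left) and TMM scaling (right); solid bars are the members' medians and dotted bars the medians of all genes. With ERCC scaling the members' medians are 0.0106, -0.00906 and -0.0598 in parental, CNOT1-AID and CNOT4-AID cells; with TMM scaling they are 0.0778, 0.0224 and 0.083.

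The difference in slope between CNOT1-AID and parental cells was called higher in 1 member and lower in 0 with ERCC scaling, beside 18.8% and 0.961% of all genes (edgeR; 3 members at an unadjusted p under 0.05, and 2 higher and 1 lower with DESeq2), and its median was -0.0151 against 0.028. With TMM scaling 2 were higher and 53 lower, beside 21.2% and 12.2%, with a median of -0.0501 against -0.0061. By complex, the TMM count was 19 lower and 1 higher of 36 in complex I, 2 lower of 4 in complex II, 6 lower and 1 higher of 10 in complex III, 11 of 12 lower in complex IV and 15 of 19 lower in complex V. The 1 member called with ERCC scaling was NDUFV3, an accessory subunit of the NADH-oxidising module. NDUFV3 went from 26.6 and 21.7 CPM (counts scaled by the ERCC total) at 0 h through 19.4 and 17.1 and then 12.7 and 18.4 to 8.56 and 7.49 at 12 h in parental cells. In CNOT1-AID cells it went from 29.8 and 34.1 through 28.4 and 36.8 and then 25.3 and 25.6 to 29.6 and 21.4. The 12 h values of these lines do not overlap, and the slopes were -0.131 (SE 0.0234; half-life 7.66 h) and -0.0317 (SE 0.0221; half-life 31.5 h), a difference of 0.0989 (SE 0.0316, edgeR adjusted p = 0.0186). The decline in CNOT1-AID cells was itself not called, and 31.5 h lies beyond the 12 h followed, so that half-life has no firm upper limit. The count was 0 without the 0 h or the 12 h libraries, and also without parental replicate 1 at 0 h, parental replicate 2 at 12 h or CNOT1-AID replicate 1 at 0 h. It was 2 without parental replicate 2 at 0 h or CNOT1-AID replicate 2 at 3 h and 3 without parental replicate 2 at 6 h, and without CNOT1-AID replicate 1 at 12 h 0 were higher and 1 lower.

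UQCRFS1, which rose in the steady-state set, declined with a half-life of 10.8 h in parental cells (slope -0.0929, SE 0.0233), from 143 and 129 CPM at 0 h to 67.0 and 59.9 at 12 h on the ERCC scale. In CNOT1-AID cells it was at 167 and 173 at 0 h and 176 and 147 at 12 h (slope -0.00965, SE 0.0218). The difference in slope, 0.0832 (SE 0.0315), did not pass with ERCC scaling (edgeR adjusted p = 0.0549) and passed with TMM scaling at 0.0479 (adjusted p = 0.00511). SDHA and NDUFS3 were the remaining members that declined in parental cells, with half-lives of 14.5 and 14.9 h. At the other end, ATP5F1E had the lowest difference, -0.0794 (SE 0.0312, edgeR adjusted p = 0.0672; -0.117 with TMM scaling, adjusted p = 3.51e-05). Its values were 71.9 and 70.5 CPM at 0 h and 105 and 103 at 12 h in parental cells, and 115 and 115 and 108 and 78.3 in CNOT1-AID cells. COX4I1, NDUFB3 and UQCRH, the lowest of complexes IV, I and III, had differences of -0.0592, -0.0578 and -0.0484 that did not pass with ERCC scaling and of -0.0954, -0.0917 and -0.0835 with TMM scaling (adjusted p = 7.71e-06, 0.000301 and 0.00246).

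Members with lower slopes in parental cells tended to have higher responses in the steady-state set, which used other libraries. Spearman's rho between the parental slope (ERCC scaling) and the log2 change in CNOT1-AID cells with auxin was -0.53 at 8 h and -0.4 at 24 h over 80 members, and -0.61 and -0.56 with the 0 h libraries left out of the slopes. Among the 22 core subunits it was -0.58 and -0.34, and among the 58 others -0.32 and -0.25. These are descriptions across genes. They were not computed over other genes, so they do not show a trait particular to the members. The parental 0 h libraries were the least alike of any pair in the decay set, with a standard deviation of 0.559 in the log2 difference over genes against 0.233 to 0.348 in the other pairs.

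Against CNOT4-AID cells, 11 members had higher slopes and 0 lower in CNOT1-AID cells with ERCC scaling, beside 51.4% and 0.202% of all genes, and 3 higher and 63 lower with TMM scaling, beside 22.6% and 16.2%. The 11 included the core subunits NDUFS3, NDUFV2, SDHA, CYC1 and UQCRFS1, and NDUFV3 was highest at 0.178 (SE 0.0313, edgeR adjusted p = 5.31e-06). Without the 12 h libraries 1 was left and without the 0 h libraries 7, and the count was 32 and 4 without CNOT4-AID replicate 1 or 2 at 12 h, 18 without CNOT1-AID replicate 2 at 3 h and 5 without CNOT1-AID replicate 1 at 12 h. Slopes of CNOT4-AID and parental cells differed in 0 of 81 members (edgeR; 46 at an unadjusted p under 0.05, and 15 lower with DESeq2), beside 0.842% of all genes, and the median difference was -0.0674. Without CNOT4-AID replicate 1 at 12 h, 60 members were lower, and without parental replicate 2 at 6 h or replicate 1 at 0 h, 4 and 1 were.

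At 0 h of triptolide, after 2 h of auxin, 4 members were higher and 0 lower in CNOT1-AID than in parental cells, beside 13.9% of all genes called in either direction, and 3 were higher and 5 lower in CNOT4-AID cells, beside 11.1%. NDUFA13 was among the higher ones in both (log2 differences 0.67 and 0.59), as in the untreated steady-state cells. Without parental replicate 2 at 0 h these counts were 35 and 33, and without parental replicate 1 they were 20 and 22. The first was 0 without either CNOT1-AID replicate, and the second 3 without CNOT4-AID replicate 2. With ERCC scaling the counts were 1 and 0.

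Other genes of the pathway, taken from fixed lists, moved in several directions at 24 h in CNOT1-AID cells (TMM scaling). Of all genes tested, 37.6% rose and 33.8% fell in that comparison, and 47% rose and 19.4% fell with ERCC scaling. Calls in both directions were thus common among all genes too. The 13 mitochondrially encoded subunits had 0 higher and 2 lower. MT-CO2 stood at 2482 and 2077 TPM without auxin and 1643 and 1685 TPM with it (log2 change -0.68, limma adjusted p = 0.00767) and MT-CO1 changed by -0.23 (adjusted p = 0.00778), and neither passed with ERCC scaling, by which 5 of the 13 were higher. Among 16 complex I assembly factors 6 rose and 6 fell (ERCC: 8 and 3). NDUFAF4 stood at 42.6 and 38.9 TPM without auxin and 198 and 170.3 TPM with it (log2 change 1.93), TMEM186 changed by 1.43 and NDUFAF8 by -1.59. Among 22 complex IV assembly factors 8 rose and 6 fell (ERCC: 12 and 4), with SCO2, a copper chaperone, at 10.3 and 10.4 TPM without auxin and 61.4 and 61.1 TPM with it (log2 change 2.28), COA7 at 2.04, and the copper chaperone COX17 at -1.76. Complex II, III and V assembly factors had 2 of 4, 1 of 6 and 1 of 4 higher and 1, 4 and 2 lower (ERCC: 2, 1 and 2 higher and 0, 2 and 2 lower). SDHAF2, which helps to attach flavin to SDHA, changed by 1.00, UQCC2 by -1.20, ATPAF1 by -1.60 and TMEM70 by 1.38.

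The regulators of mitochondrial biogenesis had no call in the lower direction after auxin in CNOT1-AID cells. Of 12 tested among 13 listed, 12 rose at 8 h and 9 at 24 h, and 0 fell at either time, with medians of 0.654 and 0.614. Of all genes, 35.7% rose and 27.1% fell at 8 h, and 37.6% rose and 33.8% fell at 24 h. With ERCC scaling 12 and 11 regulators rose, beside 52.1% and 47% of all genes. PPRC1, a coactivator of the PGC-1 family, stood at 31.4 and 31.8 TPM without auxin and 178 and 171 TPM with it at 24 h (log2 change 2.22, SE 0.0521, limma adjusted p = 3.14e-15), and PPARGC1B and POLRMT, the mitochondrial RNA polymerase, changed by 1.72 and 0.99. In the decay set 7 of 12 had higher slopes in CNOT1-AID than in parental cells with ERCC scaling and 8 with TMM scaling. Of all genes, 18.8% and 21.2% were called higher in these comparisons. In parental cells 10 of the 12 declined with ERCC scaling, beside 48.1% of all genes. After 24 h of auxin in CNOT4-AID cells 0 of the 12 rose and 2 fell, beside 4.27% of all genes called in either direction. In CNOT1-AID cells with 24 h of auxin, 5 of 18 carrier and ubiquinone synthesis genes rose and 7 fell (ERCC: 9 and 3). COQ8A changed by 2.01 and ETFB, a subunit of the electron transfer flavoprotein, by -1.53. In the same CNOT1-AID comparison 48 of 78 mitochondrial ribosomal protein genes rose and 21 fell, with a median of 0.377. Of 78 tested cytosolic ribosomal protein genes 2 rose and 53 fell, with a median of -0.243. With ERCC scaling those counts were 55 and 10, and 25 and 10.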

How the data were processed

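RNA of DLD-1 cells was sequenced as rRNA-depleted stranded total RNA with ERCC spike-in, per the labels' protocols. The steady-state table holds TPM values deposited by the authors, and the decay table holds raw counts per gene deposited by the authors. STAR 2.5.1b, RSEM, featureCounts, SAMtools, DESeq2 and hg38 are named in the submitters' processing notes; which tool made which table is not given in the sources used here, nor is the depth of the TPM libraries. Members and gene lists were chosen with earlier results of these data known. Genes with at least 1 TPM in at least 2 libraries were fitted with limma 3.58.1 (trend and robust) on log2(TMM-scaled TPM + 0.5) over 12 groups with 12 residual degrees of freedom (ERCC alternative: 48 sequences averaging at least 1 TPM), so changes of low genes are understated. Counts were fitted with edgeR 4.0.16 (quasi-likelihood, robust, 18 residual degrees of freedom), with slopes on library sizes from 56 ERCC sequences averaging at least 10 counts and 0 h contrasts on TMM. The 0 h contrasts and slopes were also run with DESeq2 1.42.0 in R 4.3.3. P-values were adjusted over all genes by Benjamini-Hochberg at 0.05. Scripts were tested on simulated data. The named genes are, per complex, the members with the highest and lowest 8 h change, 24 h change or slope difference. They also include all of complex II, the subunit c genes, ATP5IF1, the complex IV isoform pairs, and members called against most of their complex at both times. Other members named were singled out after their values were seen. 1 member is not reported here. Other settings and left-out libraries were tried. The depth behind the TPM values is unknown, and 2 libraries per group limit the precision of both sets.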

Additional observations from a re-analysis of the deposited data

Results flagged for a closer look

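The response to auxin differed between CNOT1-AID and parental cells, by the interaction term in limma, in 41 of 80 members at 8 h and in 58 at 24 h, beside 50.3% and 62% of all genes tested. At 8 h the members' share was thus close to that of all genes. Under all 4 scalings COX8A and UQCR11 were called lower at 8 h, which is 2.5% of the members beside 5.81% of all genes. At 24 h 13 members were called lower and 5 higher under all 4 scalings (16.2% and 6.25%), beside 13.8% and 28.9% of all genes. The slope under triptolide differed between CNOT1-AID and parental cells in 1 of 81 members (NDUFV3) and between CNOT1-AID and CNOT4-AID cells in 11, by edgeR's quasi-likelihood test with ERCC scaling, beside 19.8% and 51.6% of all genes. In both slope comparisons the members' share was below that of all genes. No explanation of the differences between lines was tested.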

How the results depend on the processing

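The counts of called members changed with the scaling and, for the 0 h comparisons, the untreated lines and the slope differences, with single libraries; the cause was not tested. With ERCC scaling the CNOT1-AID response held 33 calls at 8 h and 47 at 24 h, its difference from the parental response 22 and 31, the CNOT4-AID response at 24 h 0, the untreated CNOT1-AID comparison 2, and the 0 h comparisons 1 and 0. With TPM as deposited these were 35 for the CNOT1-AID response at 8 h, 19 and 34 for its difference from the parental one, 0 for CNOT4-AID at 24 h, and 2 and 44 for untreated CNOT1-AID and CNOT4-AID cells against parental ones. Median-of-ratios scaling gave 7 for untreated CNOT1-AID cells, and no filter on low values gave 1 for CNOT4-AID at 24 h.

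For slopes, TMM, library-size and median-of-ratios scaling gave 55, 28 and 59 members for CNOT1-AID against parental cells and 66, 37 and 66 against CNOT4-AID cells, mostly lower. Without 0 h or without 12 h the former count was 0, and the latter 7 and 1. DESeq2 gave 3 for CNOT1-AID and 15 for CNOT4-AID against parental cells.

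Leaving out 1 library gave 53 to 63 calls for the CNOT1-AID response at 8 h and 61 to 62 at 24 h, 36 to 43 and 51 to 57 for its difference from the parental response, 0 to 5 and 0 to 2 for the CNOT4-AID response, and 5 to 13 and 10 to 25 for untreated CNOT1-AID and CNOT4-AID cells. Slope differences ranged from 0 to 3 (CNOT1-AID minus parental), 0 to 60 (CNOT4-AID minus parental) and 4 to 32 (CNOT1-AID minus CNOT4-AID), and the 0 h comparisons from 0 to 35 and 3 to 33.

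With the replicate number as a replicate block, the counts were 63 and 69 for the CNOT1-AID response, 45 and 60 for its difference from the parental one, 6 and 26 for the untreated lines, 1, 0 and 10 for the slopes and 4 and 7 at 0 h. Same-numbered libraries did not pair: the correlations of their deviations lay between -0.222 and 0.201 in the steady-state set and between -0.341 and 0.131 in the decay set.

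Among named genes, ERCC scaling turned the 8 h change positive in ATP5MC1 (0.27), ATP5MC3 (0.31), COX5B (0.22), COX6B1 (0.031), COX7A2L (0.0112), NDUFV3 (0.28), SDHA (0.25), SDHB (0.20) and UQCRH (0.0118), and the 24 h change in COX6B1 (0.22), COX7A2 (0.06) and SDHA (0.18). TPM as deposited did so at 8 h for ATP5MC1 (0.10), COX5B (0.0511), SDHA (0.0841) and SDHB (0.0326) and at 24 h for SDHA (0.0592). TMM within protein-coding genes gave ATP5MC1 -0.00625 at 24 h. The slope differences of ATP5MC3 and COX7A2L were -0.0343 and -0.0338 with TMM and -0.0356 and -0.0351 with median-of-ratios scaling. TPM keeps no depth, so the precision of low steady-state values is unknown.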
